A study of Mus musculus with 12 samples.

Results

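The BCL2 family decides whether a cell keeps or loses the outer membrane of its mitochondria, the step that commits it to apoptosis. Its genes were read in pools of inner hair cells (IHCs) and outer hair cells (OHCs), the sensory cells of the cochlea, sorted from newborn mice. The 10 genes listed as the family's best known members (Bcl2, Bcl2l1, Mcl1, Bax, Bak1, Bcl2l11, Bbc3, Pmaip1, Bid and Bad) were matched by GENCODE mouse gene name, and each matched 1 of the 55416 gene IDs in the count tables. Of the 10, 8 passed the filter on low counts and were compared between the cell types, Bbc3 was below that filter, and Pmaip1 had 0 counts in all 12 libraries.

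RNA-seq was done on 12 libraries from the organ of Corti of P0 mice, 6 from pools of IHCs and 6 from pools of OHCs, all labelled WT. IHCs were sorted as Atoh1-GFP positive cells without tdTomato, and OHCs as cells positive for Atoh1-GFP and for R26-TdTomato, a reporter switched on by Insm1-GFP-Cre. By the study's methods, both cell types came from one cross, of fathers carrying the tdTomato reporter with mothers carrying the Insm1 and Atoh1 knock-ins, so the WT label sits beside reporter alleles in both groups. Each library is a pool of cells from several pups, and for the RNA libraries the sources used here do not say whether an IHC pool and an OHC pool came from the same pups, so p-values measure the spread between pools. Atoh1 and Insm1 took part in the sort, and a cell that had not yet switched on the reporter would have been sorted as an IHC.

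Members of the family are grouped by what they do. The survival proteins BCL-2 (Bcl2), BCL-XL (Bcl2l1) and MCL-1 (Mcl1) hold the death proteins in check. The effectors BAX and BAK (Bak1) form the pores in the mitochondrial membrane that release cytochrome c. The BH3-only proteins BIM (Bcl2l11), PUMA (Bbc3), NOXA (Pmaip1), BID and BAD sense stress and act by placing their BH3 helix into a groove of the other members. In hair cells this route is known from work on death after aminoglycosides, cisplatin and noise. Much of it is set after transcription, by the rapid turnover of MCL-1 protein, by the cutting of BID and by the phosphorylation of BAD and BIM, none of which RNA levels show.

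The stretch that all members have in common is the core of the BH3 motif, and its coding sequence is shown here since it is the motif that every one of them carries. In the canonical transcript of each gene, the translation was searched for a leucine followed, after any 3 residues, by glycine, alanine or serine, then aspartate, then an acidic residue or glycine, and each of the 9 genes listed here held 1 match. Capitals mark the codon of the leucine and the codons of the small residue and the aspartate, each sequence is 27 bases of coding exon written 5′ to 3′ on the gene's strand, and positions are on GRCm39 from GENCODE vM39.
Bcl2, exon 1, minus strand, chr1:106640305-106640331: CTCcgccgggctGGGGATgacttctct
Bcl2l1, exon 2, minus strand, chr2:152671617-152671643: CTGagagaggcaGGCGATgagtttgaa
Mcl1, exon 1, plus strand, chr3:95566747-95566773: CTGcggcgcgtgGGCGACggcgtgcag
Bax, exon 3, minus strand, chr7:45115421-45115447: CTCcggcgaattGGAGATgaactggac
Bak1, exon 4, minus strand, chr17:27241505-27241531: CTTgctctcatcGGAGATgatattaac
Bcl2l11, exon 3, plus strand, chr2:127989070-127989096: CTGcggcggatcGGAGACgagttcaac
Bbc3, exon 3, plus strand, chr7:16047698-16047724: CTGcggcggatgGCGGACgacctcaac
Bid, exon 4, minus strand, chr6:120874250-120874276: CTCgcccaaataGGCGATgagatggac
Bad, exon 2, plus strand, chr19:6928160-6928186: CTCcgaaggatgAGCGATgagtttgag

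Total counts on genes were similar in both cell types, and the libraries matched their labels. Counts on genes ranged from 31490204 to 44017309 per IHC library and from 29564827 to 39121988 per OHC library. Ribosomal RNA, that of mitochondria included, made up 21.5% to 56.9% of them in IHCs and 23.4% to 36.4% in OHCs, the highest share being that of IHC replicate 1. That library also had the smallest size after normalization, 15289551. The range was 15289551 to 40935077 in IHCs and 29975818 to 46384061 in OHCs. Of 7 IHC and OHC identity genes, Tbx2, Fgf8 and Slc17a8 were IHC-enriched and Insm1, Neurod6 and Bcl11b were OHC-enriched, and for each of these 6 genes no library of one cell type overlapped the other. The OHC gene Ikzf2 did not split by the labels, at 8.89 CPM in IHCs against 6.75 in OHCs (log2 fold change -0.40, edgeR adjusted p = 0.840). Insm1 drove the reporter used in the sort, so its split adds nothing about the labels. All 12 hair cell markers passed the filter on low counts, and Otof, Espn, Pvalb and Gfi1 were IHC-enriched. Of the 12, 10 were lower in OHCs, with a median log2 fold change of -0.56. The markers higher in OHCs were Myo6 (2277 CPM in IHCs against 3162 in OHCs, edgeR adjusted p = 0.0650) and Rasd2 (790 against 898 CPM, 0.620). The 12 summed to 7318 to 11193 CPM in IHC and 5909 to 7523 CPM in OHC libraries. Markers of other cells also differed. Supporting cell and greater epithelial ridge markers summed to 2086 to 3151 CPM, the counts scaled to the size of the library, in IHC and 829 to 1444 CPM in OHC libraries, with 5 of 15 IHC-enriched (S100a1, Tecta and Calb2 among them) and 1, Prox1, OHC-enriched. Of the 15, 9 were lower in OHCs. By the study, S100a1 is expressed in IHCs as well as in other cochlear cells, and Prox1 in outer hair and supporting cells. The sum of this list is therefore not a measure of other cells alone. Tecta, S100a1 and Gata3 had the highest IHC means of this list (772, 530 and 437 CPM, against 220, 106 and 154 in OHCs). Hes5, Hey1 and Fgfr3 had higher means in OHCs (20.2, 56.0 and 73.1 CPM, against 8.08, 39.6 and 16.8 in IHCs). Spiral ganglion neuron markers summed to 809 to 1494 and 217 to 438 CPM (Nefl and Nefm IHC-enriched, the only ones tested), a sum made up almost wholly of Nefl and Nefm: the other 6 markers had means of at most 0.195 CPM in IHCs and at most 2.04 in OHCs, with Th at 0 counts in all IHC libraries and Neurod1 at 0 in all OHC libraries, and mesenchyme markers to 97.0 to 139 and 19.4 to 78.1 CPM (Vim IHC-enriched, of 7 tested). Endothelium and pericyte markers summed to 0.38 to 5.99 and 15.9 to 177 CPM, with 5 of 7 OHC-enriched, among them Cldn5, Kdr, Tek and Pecam1, and with Cldn5 at 0 counts in all IHC libraries. The other lists overlapped between the cell types: glia at 20.9 to 75.4 and 7.91 to 44.9 CPM, macrophages at 1.75 to 19.6 and 1.08 to 13.8 CPM (Cx3cr1, Aif1, C1qa and C1qc at 0 throughout) and erythroid cells at 0 to 0.06 and 0 to 3.20 CPM. Their part in the results below was not tested.

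Of the 8 members tested, 1 differed between IHCs and OHCs at an adjusted p under 0.05 (edgeR's quasi-likelihood test, Benjamini-Hochberg adjustment over 13269 genes). Among all genes tested the share was 6.26%, and a single gene of 8 is too few to set against it. That gene was Bcl2l11, which was IHC-enriched. At an unadjusted p under 0.05 there were 3 members (Bcl2l11, Bid and Bad) of 8, beside 21.8% of all genes. By direction the background of adjusted calls was 3.81% for IHC-enriched and 2.44% for OHC-enriched genes. The log2 fold change of OHCs against IHCs was below 0 in 5 members and above 0 in 3, with a median of -0.20 over the members and -0.04 over all genes tested. The median size of the fold change, whatever its sign, was 0.73 in the members and 0.59 in all genes on the log2 scale. In none of the 8 members did all 6 libraries of one cell type lie above all 6 of the other, which was so for 4.6% of the genes tested. In bulk pools, fewer cells that express a gene and less RNA per cell cannot be told apart.

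**Figure D1:**
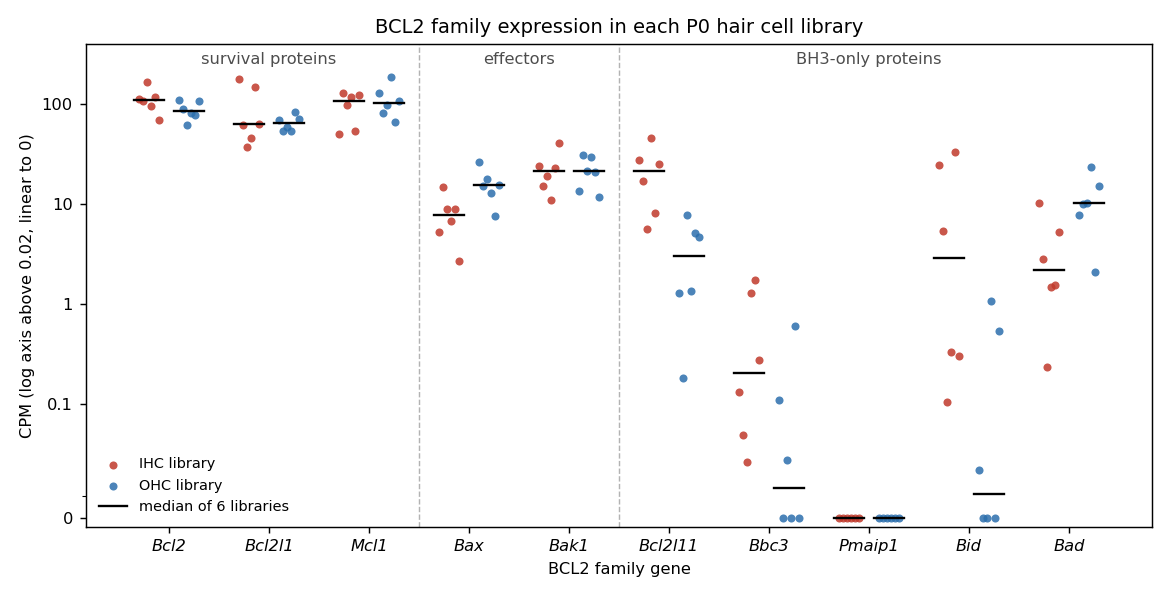
Level of each of the 10 members in every library, in CPM, for 6 IHC and 6 OHC pools, with the median of the 6 libraries as a bar; the axis is logarithmic above 0.02 CPM and linear below it. Bcl2l11 has a median of 21.2 CPM in IHCs against 3.02 in OHCs, Bid reaches 5.37 CPM or more in 3 IHC pools and at most 1.08 CPM in OHC pools, and Pmaip1 was at 0 throughout.

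The survival genes were the most expressed members in both cell types, and none of the 3 passed the test between them. Bcl2 (ENSMUSG00000057329, chr1:106465908-106642060) encodes the founding member of the family. Its level was 69.5 CPM in the lowest, 110 in the median and 166 in the highest IHC library, and 62.5, 85.7 and 111 CPM in OHC libraries. The ranges overlapped, with 3 IHC libraries above every OHC library and 1 OHC library below every IHC library. Means were 112 ± 31.8 CPM in IHCs and 88.4 ± 18.6 in OHCs (SD, n = 6 each), a log2 fold change of -0.34 (SE 0.24, 95% interval -0.84 to 0.16, edgeR adjusted p = 0.438).

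Bcl2l1 (ENSMUSG00000007659, chr2:152622582-152673655), the gene of BCL-XL, ran from 37.2 CPM through a median of 62.8 to 180 CPM in IHCs, and from 54.0 through 64.4 to 82.6 CPM in OHCs. The 2 highest IHC libraries, replicates 1 and 5, stood above every OHC library, and 2 other IHC libraries stood below every OHC library. The means, 89.6 ± 59.6 and 65.0 ± 11.2 CPM, gave a log2 fold change of -0.46 (SE 0.35, interval -1.18 to 0.26, edgeR adjusted p = 0.469). The pools differed in spread: the coefficient of variation was 66.6% among IHC pools, above 89.6% of the 1562 genes of like level, and 17.2% among OHC pools, above 11.5% of them. This difference in spread was not tested.

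Mcl1 (ENSMUSG00000038612, chr3:95566026-95570487) encodes a survival protein that is made and broken down within hours. It lay at 49.9, 109 and 130 CPM (lowest, median and highest) in IHCs and at 65.5, 103 and 186 CPM in OHCs. The 2 lowest IHC libraries were below every OHC library and 1 OHC library was above every IHC library. With means of 95.7 ± 35.5 and 111 ± 42.4 CPM, the log2 fold change was 0.22 (SE 0.30, interval -0.40 to 0.84, edgeR adjusted p = 0.716). The 2 low IHC libraries were replicates 1 and 5, the same ones in which Bcl2l1 was high. There Mcl1 lay at 49.9 to 53.8 CPM and Bcl2l1 at 149 to 180 CPM, while in the other 4 IHC libraries Mcl1 lay at 99.0 to 130 CPM and Bcl2l1 at 37.2 to 63.4 CPM.

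Of the effectors, neither passed the test. Bax (ENSMUSG00000003873, chr7:45111015-45116325), whose protein moves from the cytosol to mitochondria when a cell is told to die, lay at 2.67, 7.82 and 14.95 CPM in IHCs and at 7.64, 15.3 and 26.1 CPM in OHCs. Of the OHC libraries, 4 were above every IHC library, and 3 IHC libraries were below every OHC library. Mean levels were 7.91 ± 4.18 and 15.8 ± 6.08 CPM (log2 fold change 1.0, SE 0.53, interval -0.11 to 2.12, edgeR adjusted p = 0.285).

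Bak1 (ENSMUSG00000057789, chr17:27238784-27247983), whose protein sits on mitochondria at rest, was nearly level. It ran from 10.9 through 21.2 to 40.5 CPM in IHCs and from 11.6 through 21.2 to 31.2 CPM in OHCs. The means were 22.1 ± 10.3 and 21.4 ± 8.01 CPM (log2 fold change -0.05, SE 0.42, interval -0.93 to 0.82, edgeR adjusted p = 0.959), an interval that still leaves room for a difference of nearly 1 log2 unit either way. The annotation gives Bak1 a small exon of 20 bases, included in 1 of its 8 transcripts and there annotated as leading to nonsense-mediated decay, at chr17:27240637-27240656 on the minus strand: gccagcagcaacatgcacag. The counts add up all transcripts of the gene, so the use of this exon was not analysed here.

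The BH3-only genes held the member that passed the test and the members with the largest fold changes. Bcl2l11 (ENSMUSG00000027381, chr2:127967958-128004476) encodes BIM, a protein that binds every survival member and has a part in the death of many neurons deprived of growth factors. Its level was 5.65 CPM in the lowest, 21.2 in the median and 45.9 in the highest IHC library, against 0.183, 3.02 and 7.73 CPM in OHC libraries. All but 1 of the IHC libraries were above every OHC library, and 5 OHC libraries were below every IHC library. The IHC libraries by replicate were at 27.3, 17.1, 5.65, 45.9, 8.09 and 25.2 CPM, and the OHC libraries at 1.29, 0.183, 7.73, 1.34, 5.17 and 4.71 CPM. The means, 21.5 ± 14.8 and 3.40 ± 2.92 CPM (SD, n = 6 each), put Bcl2l11 6.32-fold higher in IHCs (log2 fold change -2.66, SE 0.76, interval -4.24 to -1.08, edgeR adjusted p = 0.0404).

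The call on Bcl2l11 lay close to the threshold and its direction did not depend on any library. It was lost when any one of IHC replicates 1, 4 and 6 or OHC replicates 1, 2, 4, 5 and 6 was left out, with edgeR adjusted p-values of 0.0564, 0.0981, 0.0610, 0.0839, 0.0550, 0.0830, 0.0538 and 0.0665. Over all 12 such fits the log2 fold change stayed between -3.10 and -2.29, and the adjusted p was as low as 0.0302, without IHC replicate 3. In these fits 4.4% to 6.92% of all genes tested passed. Of the 7 alternatives that kept all libraries and tested Bcl2l11, 6 called it, and over the 7 the adjusted p ran from 0.00292 to 0.0671. Among those that called it were DESeq2 (adjusted p = 0.00292, where 17.3% of all genes passed) and edgeR's exact test (0.00792, where 9.57% did), and both also called Bid, at 0.00478 and 0.0152. The marker sums of supporting cells and mesenchyme were also higher in IHC than in OHC libraries, as were the neurofilament genes Nefl and Nefm. Single supporting cell markers went both ways, with 9 of the 15 tested lower in OHCs, and hair cells express some of them, S100a1 and Prox1 by the study. The part of these markers in the level of Bcl2l11 was not tested.

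Bid (ENSMUSG00000004446, chr6:120862525-120894171) links death receptors to mitochondria, its protein being cut by caspase-8. It was read at 378, 220, 4, 13, 1073 and 11 counts in IHC replicates 1 to 6 and at 1, 0, 0, 37, 0 and 23 counts in the OHC replicates. On the CPM scale the IHC libraries ran from 0.105 through a median of 2.85 to 32.9 and the OHC libraries from 0 through 0.0108 to 1.08. Thus 3 IHC libraries (replicates 1, 2 and 5) stood above every OHC library, while the other 3 lay within the OHC range. In 4 OHC libraries Bid had at most 3 counts, which are worth 0.0647 to 0.1001 CPM in these libraries.

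The means of Bid were 10.6 ± 14.5 and 0.273 ± 0.448 CPM, a fitted log2 fold change of -5.26 (SE 1.61, interval -8.62 to -1.90, edgeR adjusted p = 0.0571). Bid thus had the largest fitted change of the 8 members and did not pass the test. It passed without IHC replicate 3, 4 or 6 or OHC replicate 4 (adjusted p 0.0424, 0.0448, 0.0450 and 0.0447, with log2 fold changes of -5.56, -5.52, -5.55 and -6.50), and among the fits that left out a library the highest adjusted p, 0.126, came without IHC replicate 5, where the log2 fold change was -4.54. Bid overlaps Bcl2l13, which lies on the opposite strand, and 3059 exonic bases, 31.2% of those of Bid, are shared. Bcl2l13 was at 37.3 ± 29.4 CPM in IHCs against 23.3 ± 10.1 in OHCs (log2 fold change -0.68, edgeR adjusted p = 0.439). Whether strand was used in counting is not given in the sources used here, and without strand reads of the shared part cannot be told apart.

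Bad (ENSMUSG00000024959, chr19:6918902-6929280), whose protein is held inactive by growth factor signals, leaned the other way. It lay at 0.236, 2.18 and 10.2 CPM in IHCs and at 2.10, 10.2 and 23.2 CPM in OHCs. Of the OHC libraries 3 were above every IHC library, and 3 IHC libraries were below every OHC library. Means of 3.59 ± 3.66 and 11.4 ± 7.16 CPM gave a log2 fold change of 1.67 (SE 0.80, interval 0.00 to 3.35, edgeR adjusted p = 0.230). Of the exonic bases of Bad, 20.4% are shared with Gpr137 on the opposite strand, a gene at 9.42 ± 5.10 CPM in IHCs against 9.82 ± 5.78 in OHCs (log2 fold change 0.06, edgeR adjusted p = 0.969).

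Bbc3 and Pmaip1, both textbook targets of p53, were close to or at 0. Bbc3 (ENSMUSG00000002083, chr7:16042318-16052130) had 2, 2, 1, 51, 57 and 10 counts in IHC replicates 1 to 6 and 5, 0, 1, 0, 18 and 0 counts in the OHC replicates. Of these 12 libraries, 3 of IHCs and 4 of OHCs held at most 3 counts. Its means were 0.585 ± 0.740 and 0.123 ± 0.238 CPM, and it did not pass the filter of the main test. Without a filter the log2 fold change was -2.23 (edgeR adjusted p = 0.421), and in DESeq2 -2.27 (adjusted p = 0.305). Pmaip1 (ENSMUSG00000024521, on chromosome 18) had 0 counts in every library, which allows a level of up to 0.0647 to 0.196 CPM per library, counting error alone.

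**Figure D2:**
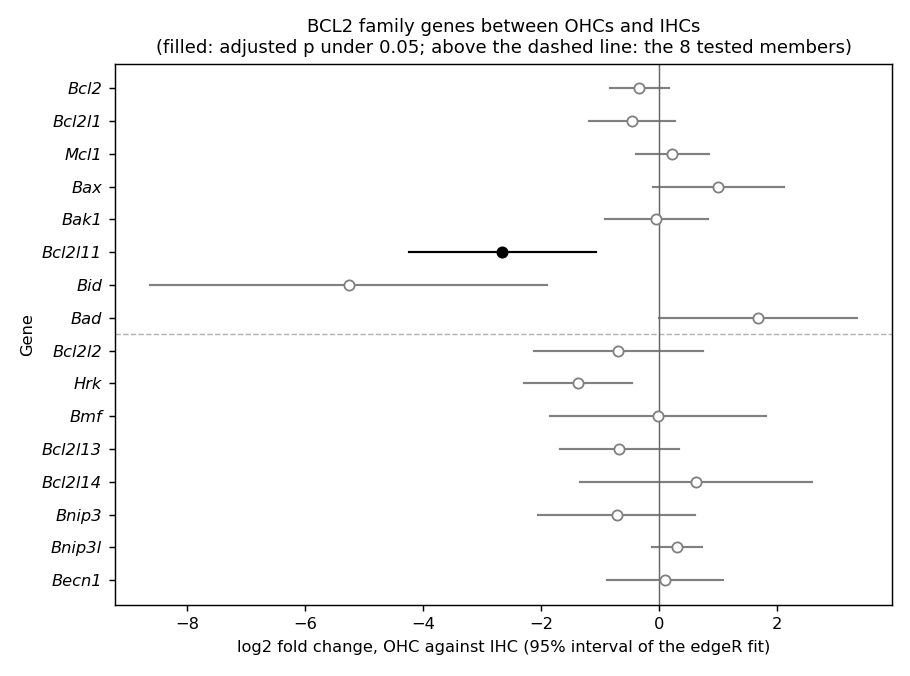
Log2 fold change of OHCs against IHCs for the 8 tested members (above the dashed line) and the 8 tested genes of the other BCL2 family list (below it), with 95% intervals of the edgeR fit. Values below 0 are higher in IHCs, and filled points passed an adjusted p of 0.05. Only Bcl2l11, at -2.66, is filled among these 16 genes, and Bid has the widest interval, -8.62 to -1.90.

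**Figure D3:**
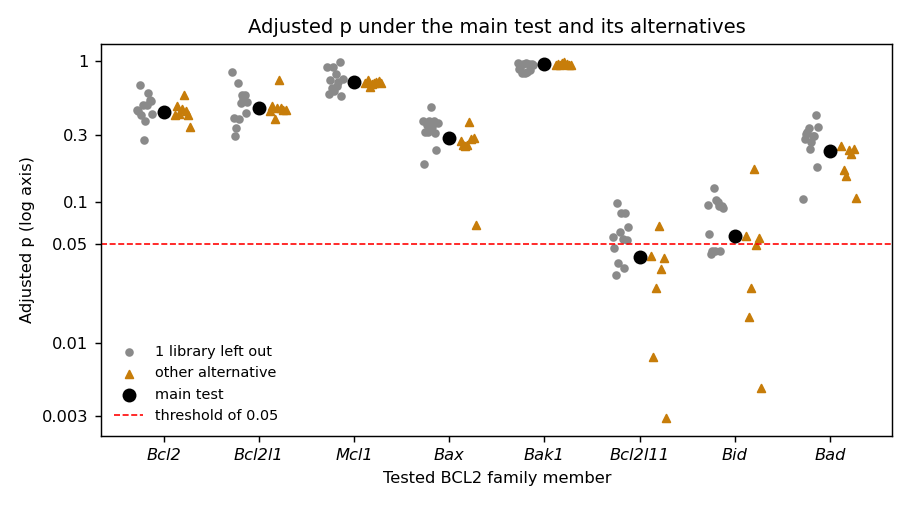
Adjusted p of OHCs against IHCs for each tested member, on a logarithmic axis, in the main edgeR test (black), with 1 library left out (grey) and under the other alternatives (triangles); the dashed line is the threshold of 0.05. Bcl2l11 was under the line in 10 of 19 alternatives, Bid in 8 of 19, and the remaining 6 members in none.

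Setting the members beside each other needs levels per length of exon, as TPM. TPM is scaled to each library's own total, without the normalization used for CPM. Contrasts between the cell types can therefore differ on these scales. Bcl2l1 was at 89.6 CPM in IHCs and 65.0 in OHCs, but at 37.0 and 38.2 TPM. Bcl2 was at 112 and 88.4 CPM, but at 29.5 TPM in both. In IHCs the order was Mcl1 (73.1 ± 42.1 TPM), Bcl2l1 (37.0 ± 20.1), Bcl2 (29.5 ± 13.3), Bak1 (24.2 ± 20.1), Bax (10.2 ± 5.50), Bcl2l11 (5.23 ± 4.5), Bid (2.03 ± 3.30), Bad (1.62 ± 1.5) and Bbc3 (0.32 ± 0.40). No neighbour in this order was separated from the next by more than their SDs, and Pmaip1, at 0, closed it. Mcl1 was above Bcl2l1 in 4 libraries, Bcl2l1 above Bcl2 in 4, Bcl2 above Bak1 in 5, Bak1 above Bax in 5, Bax above Bcl2l11 in 4, Bcl2l11 above Bid in 5, Bid above Bad in 2 and Bad above Bbc3 in 5.

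In OHCs the order was Mcl1 (99.7 ± 44.8 TPM), Bcl2l1 (38.2 ± 6.84), Bcl2 (29.5 ± 9.16), Bax (27.5 ± 14.7), Bak1 (26.98 ± 10.7), Bad (7.96 ± 4.86), Bcl2l11 (1.0 ± 0.93), Bid (0.08 ± 0.14) and Bbc3 (0.06 ± 0.11). Mcl1 above Bcl2l1, Bcl2l1 above Bcl2, Bak1 above Bad and Bcl2l11 above Bid held in all 6 libraries, and of the neighbours only Mcl1 and Bcl2l1, Bak1 and Bad, and Bad and Bcl2l11 lay further apart than their SDs. Bax and Bak1 were not ordered, with Bax higher in 3 of 6. Against the 13269 genes tested, Mcl1 was above 94.7% of them in IHCs and 96.1% in OHCs, while Bcl2l11 was above 43.2% and 8.86%. The order rests on the gene length: by the longest transcript Bax moved from 27.5 to 40.8 TPM in OHCs, above Bcl2 at 33.1. TPM values also fall as ribosomal RNA takes more of a library, whereas shares of the family's own total do not.

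As a share of the summed TPM of the 10 members, survival genes held 76.6% ± 3.38 in IHCs (71.5% to 80.1%, n = 6) and 72.5% ± 4.71 in OHCs (65.1% to 76.9%). Effectors held 17.97% ± 3.78 and 23.7% ± 5.02, and BH3-only genes 5.46% ± 2.96 and 3.82% ± 1.55. These ranges overlapped for all 3 roles. The BH3-only part holds only the 5 members of that role. The BH3-only genes Hrk and Bmf are outside it. Hrk was at 15.1 TPM in IHCs and 8.33 in OHCs, and Bmf at 2.69 and 6.68 TPM. Among the 5 members, the make-up of the BH3-only part differed more than its size. Bcl2l11 was 59.1% ± 28.7 of it in IHCs (16.5% to 89.1%) and 15.5% ± 17.4 in OHCs (0.802% to 46.3%), and Bad was 17.5% ± 11.7 in IHCs (6.41% to 31.2%) and 81.8% ± 21.1 in OHCs (42.4% to 99.2%). Bcl2l11 was above Bad in 6 of 6 IHC libraries and in 1 of 6 OHC libraries, and the ranges of the share of Bad did not overlap. These shares were chosen with the levels known and are given without a test. The ratio of Bax to Bak1 was 0.59 ± 0.42 in IHCs and 1.17 ± 0.81 in OHCs, with overlapping ranges.

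**Figure D4:**
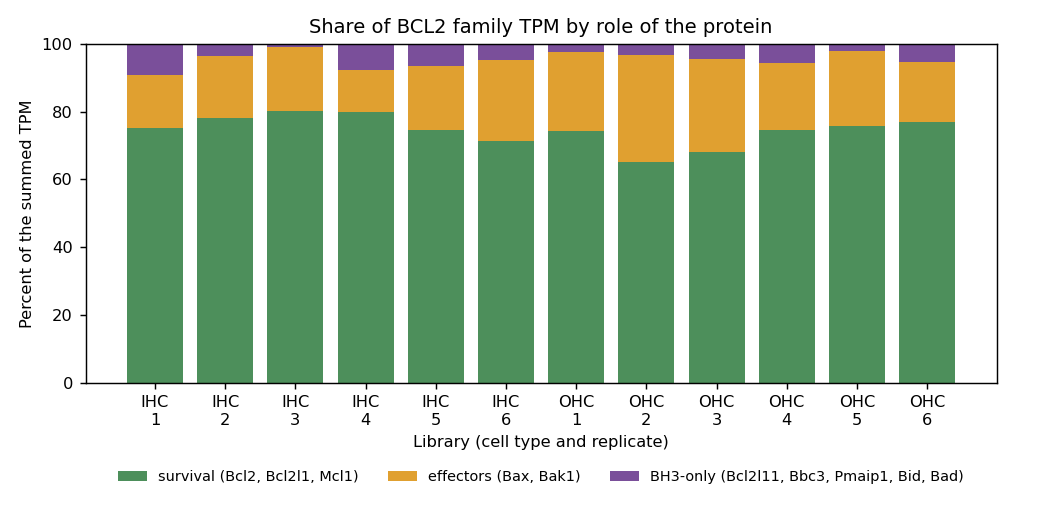
Shares of the summed TPM of the members by role of the protein, in percent, as a stacked bar for each of the 12 libraries. Survival genes hold 65.1% to 80.1% of every bar, effectors 12.3% to 31.5% and BH3-only genes 0.937% to 9.18%.

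The other genes of the family and of the routes around it were read from 6 lists with 101 genes, of which 75 were tested. Of these 75, 4 were IHC-enriched and 1 was OHC-enriched, beside 3.81% and 2.44% of all genes tested. Full separation of the 2 cell types, given below for single genes, was seen in 4.6% of all genes tested. Of the 16 other BCL2 family genes 8 were tested and 0 passed in edgeR, with 1 of them at an unadjusted p under 0.05, 1 past the threshold in DESeq2 and 1 in edgeR's exact test, in each case Hrk, and a median log2 fold change of -0.35. Named here after its values were seen, Hrk, the BH3-only gene called harakiri that is known from neurons, lay at 38.0 ± 14.2 CPM in IHCs against 14.6 ± 6.98 in OHCs, with 5 IHC libraries above every OHC library (log2 fold change -1.38, SE 0.44, edgeR adjusted p = 0.0661; DESeq2 0.0114). Its level was 15.1 TPM in IHCs, beside 5.23 for Bcl2l11, and 8.33 TPM in OHCs, beside 7.96 for Bad. The immune-cell survival genes Bcl2a1a, Bcl2a1b and Bcl2a1d had 0 counts in all libraries.

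Downstream of the mitochondria, 19 of 22 apoptosome, caspase and IAP genes were tested, with a median of -0.13, and 1 passed. It was Dffa, which encodes the inhibitor of the nuclease that cuts DNA in apoptosis, at 45.5 ± 20.3 CPM in IHCs against 8.47 ± 5.96 in OHCs, with all 6 IHC libraries above every OHC library (log2 fold change -2.42, SE 0.61, edgeR adjusted p = 0.0207; 0.0511 without OHC replicate 6). Upstream, of 18 p53 pathway genes 13 were tested with a median of 0.23, and 1 passed in each direction. Zmat3, an RNA-binding protein gene that p53 activates, was at 557 ± 106 CPM in IHCs against 323 ± 82.0 in OHCs (log2 fold change -0.79, SE 0.20, edgeR adjusted p = 0.0228). Ccng1, which encodes cyclin G1 and is also a p53 target, was at 68.3 ± 28.5 CPM in IHCs against 143 ± 30.7 in OHCs, the 6 OHC libraries all lying above the IHC libraries (log2 fold change 1.07, SE 0.29, edgeR adjusted p = 0.0293). Zmat3 was not past the threshold without OHC replicate 2, 4 or 6 (adjusted p 0.0556, 0.0512 and 0.0548), nor Ccng1 without IHC replicate 5 or OHC replicate 1, 4, 5 or 6 (0.0609, 0.0641, 0.0641, 0.0643 and 0.0532).

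Of 12 death receptor genes 6 were tested and 0 passed in edgeR, with 2 of them at an unadjusted p under 0.05, 1 past the threshold in DESeq2 and 1 in the exact test, and a median of -0.23, and Tnf had 0 counts in every library. Of the 14 regulators of MCL1, BAD and BIM proteins all were tested, with a median of 0.00, and 1 passed. This was Mapk10, the gene of the neuronal JNK3 kinase, which can phosphorylate BIM. It was at 50.7 ± 16.0 CPM in IHCs against 6.52 ± 5.48 in OHCs, with 6 IHC libraries above every OHC library (log2 fold change -2.96, SE 0.66, edgeR adjusted p = 0.00987), and it passed in all 12 fits that left out a library. Of 18 matched immediate early and stress genes, which handling of tissue can switch on, 15 were tested with a median of 0.22 and 1 passed. That gene, Junb, was at 29.9 ± 62.6 CPM in IHCs against 1.34 ± 1.67 in OHCs (log2 fold change -4.47, edgeR adjusted p = 0.0222), but its highest library, IHC replicate 1 at 158 CPM, decided the value. Without it the log2 fold change was -1.70 (adjusted p = 0.346). Junb also missed the threshold without OHC replicate 1, 2, 4, 5 or 6, at adjusted p-values of 0.0511 to 0.0558. Of the 15, 6 were at an unadjusted p under 0.05, beside 21.8% of all genes. DESeq2, where 17.3% of all genes passed, called Ier2 and Foxo3. Ier2 was at 2.82 CPM in IHCs against 11.9 in OHCs, all 6 OHC libraries lying above the IHC libraries (log2 fold change 2.07, edgeR adjusted p = 0.0700). Foxo3 was at 104 against 49.7 CPM (-1.06, 0.0701).

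The genes whose level across the 12 libraries was most like that of Bcl2l11, by Pearson's r of log2 CPM among 13268 other genes, were Gata3os (r = 0.951), Ttll1 (r = 0.918) and Adissp (r = 0.918). Their points share the libraries and the split between cell types, so r is a description only. Gata3os, a long noncoding RNA beside Gata3, was at 10.5 CPM in IHCs against 1.21 in OHCs (edgeR adjusted p = 0.0515), Ttll1 at 46.7 and 25.1 CPM (0.117) and Adissp at 38.4 and 19.0 CPM (0.125).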

How the data were processed

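The authors trimmed reads with Trimmomatic, aligned them with STAR in 2 passes and counted them per gene with HTSeq (intersection-nonempty mode) against GRCm39 and GENCODE vM27; versions and the strand setting are not given in the sources used here. The deposited values are raw counts for 55416 genes and 5 summary lines per library, which were left out. The reads carry no molecular identifiers, so limits from counts cover counting error only.

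Low genes were removed with filterByExpr, grouped by cell type, at a minimum count of 10 and a total of 15. Libraries were normalized by TMM and compared with edgeR 4.0.16's quasi-likelihood test in R 4.3.3, with Benjamini-Hochberg adjustment over 13269 genes and a threshold of 0.05, and the procedure was tested on simulated data. CPM uses the TMM-normalized library size. TPM uses the exon union of GENCODE vM39, which holds 98.8% of the gene IDs and 99.97% of the counts, and is not TMM-normalized. Alternatives were DESeq2 1.42.0, RLE size factors, the exact test, other filters, robust fitting, ribosomal RNA genes left out, a replicate block and each library left out. The methods name edgeR but not its test.

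The members and lists were chosen with earlier results of these data known. All 10 members are named, as is every listed gene past the threshold (for lists with more than 4, the 4 with the largest fold change) and the 3 genes most correlated with the member of lowest p. The name Ddit3 matched more than 1 gene ID and was left out.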

Additional observations from a re-analysis of the deposited data

Results flagged for a closer look

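Bbc3 in OHC replicate 5 stood apart from the other 5 OHC libraries, at 0.600 CPM (18 counts) against 0.108 CPM (5 counts) in the next highest. The gap was 0.820 of the range of the 6 libraries, over Dixon's 95% critical value. Of the 18 groups of 6 libraries tested this was the only such value, and chance flags about 1 in 20 groups.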

How the results depend on the processing

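Against 506 IHC-enriched and 324 OHC-enriched genes, 1 member called and 4 and 1 genes of the pathway lists, the counts moved as follows. The edgeR exact test gave 751 and 519 genes, 2 members and 8 and 2 list genes. Without a filter there were 893 and 918 genes (6.59% of 27488 tested), 2 members and 6 and 4 list genes. With at least 10 counts in every library there were 464 and 221 genes (7.11% of 9638 tested), 0 members and 2 and 2 list genes. Bcl2l11 and Bid were then not tested. DESeq2 gave 1339 and 1590 genes (17.3% of 16911 tested), 2 members and 8 and 7 list genes. Robust fitting gave 2 members, beside 6.54% of 13269 genes tested. Where 2 members were called they were Bcl2l11 and Bid. Leaving out 1 library gave 369 to 551 IHC-enriched and 225 to 402 OHC-enriched genes, 0 to 2 members and 1 to 6 and 0 to 1 list genes. RLE size factors and leaving out ribosomal RNA genes kept 1 member. Bak1 was -0.05 in the main test and had the opposite sign without IHC replicate 6 (0.19), OHC replicate 1 (0.04) or OHC replicate 6 (0.07), within a range of -0.21 to 0.19 and never past the threshold. The ranges of the others that never passed were -0.46 to -0.20 for Bcl2, -0.64 to -0.15 for Bcl2l1, 0.01 to 0.33 for Mcl1, 0.80 to 1.28 for Bax and 1.32 to 2.32 for Bad. Bbc3 was at -2.23 without a filter (edgeR adjusted p = 0.421). Leaving out the 20 most abundant genes raised all TPM levels, Mcl1 in IHCs from 73.1 to 231 TPM. The cause of these moves was not tested, beyond the change in the genes or libraries tested.

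The labels number the libraries 1 to 6 in both cell types without saying that a number marks shared pups. Deviations of same-numbered libraries correlated at -0.0313 to 0.0184 and those of other pairs at -0.0706 to 0.0529. Of 6 IHC libraries, 0 correlated best with their own number. With all correlations this weak, the check cannot tell whether same-numbered pools came from shared pups. With the replicate block 512 and 391 genes (6.81% of 13269 tested), 0 members and 4 and 2 list genes passed. Bcl2l11 was then at -3.13 (edgeR adjusted p = 0.0671) and Bid at -6.49 (0.171).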

Other observations

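IHC replicates 1 and 5 resembled each other in 3 members, the survival genes Bcl2l1 and Mcl1 and the BH3-only gene Bid, named after their values were seen. Bcl2l1 was at 149 to 180 CPM in this pair and at 37.2 to 63.4 CPM in the other 4 IHC libraries, Mcl1 at 49.9 to 53.8 and 99.0 to 130 CPM, and Bid at 24.7 to 32.9 and 0.105 to 5.37 CPM. By TPM, Bcl2l1 did not set the pair apart, at 30.7 in replicate 1 and 73.6 in replicate 5, against 20.8 to 46.5 in the other 4. Mcl1 (12.5 and 39.1 TPM, against 80.7 to 133) and Bid (2.21 and 8.52, against 0.031 to 1.19) did. Also by TPM, Bcl2l1 was above Mcl1 in these 2 libraries, and Mcl1 was the highest member in the other 10 of the 12. IHC replicate 1 also had the highest share of ribosomal RNA, 56.9%, and the highest Junb, 158 CPM; the part of either in these levels was not tested.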
